A study of Mus musculus with 12 samples.

Results

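Toll-like receptors (TLRs) on macrophages recognise bacterial products such as lipopolysaccharide (LPS) and pass the signal through the adaptor MyD88, the IRAK kinases and TRAF ubiquitin ligases to NF-kB and to the MAP kinases. The response is held in check by proteins that act back on its own steps. These are the ubiquitin-editing protein A20 (Tnfaip3) and its partner ABIN-1 (Tnip1), the adaptor Traf1, the inactive kinase IRAK-M (Irak3), the zinc finger proteins of the tristetraprolin family (Zfp36, Zfp36l1 and Zfp36l2), which bind AU-rich elements and speed the decay of cytokine mRNAs, and dual-specificity phosphatases (Dusp1, Dusp2 and Dusp16), which dephosphorylate MAP kinases. These 10 genes, of 20551 in the deposited table, were taken by name, with earlier results of these data known, and all 10 passed the filter on low counts. Several of them are known in macrophages as genes that LPS itself induces, and airway macrophages (AMs) are the cells of the airspaces that first meet inhaled bacteria.

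RNA was sequenced from AMs of 6-week-old female mice on the C57BL/6 background. Scnn1b-Tg mice carry a transgene for the beta subunit of the sodium channel ENaC, driven by the promoter of the club cell secretory protein and so expressed in airway epithelium rather than in AMs, and their airways become obstructed by mucus. Wild-type (WT) littermates were the controls. The study's lavage methods give pools of 3 to 4 animals for such cultures, so that individual animals could not be compared. Cells were cultured for 12 h with medium alone or with 100 ng/ml LPS of Pseudomonas aeruginosa. The number in the sample titles was taken as the pool, so that a medium and an LPS library of the same genotype and number would share their animals. On that reading there were 6 pools (WT 16, 17 and 18, Scnn1b-Tg 17, 18 and 19), which gave 3 libraries for each genotype and treatment. The labels place WT 16, WT 17 and Scnn1b-Tg 17 in library batch 1 and the other pools in batch 2. For the cells of these cultures, the labels describe adherent lavage cells and the study's methods describe AMs flow-sorted from digested lungs. The source of the cells, their purification and the pooling are therefore uncertain. Only 12 h was sampled, and transcripts that rise and return within hours were not followed.

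Libraries held 48.2 to 60.9 M deposited counts. Levels are given as counts per M counts (CPM) after scaling with edgeR's TMM factors, and changes as log2 fold changes with their standard errors (SE) from edgeR's quasi-likelihood test, with Benjamini-Hochberg adjustment of p-values across all 13729 tested genes. The 11 AM markers summed to 16699 to 17030 CPM in WT medium, 12094 to 14777 CPM in WT LPS, 18488 to 22019 CPM in Scnn1b-Tg medium and 14157 to 19169 CPM in Scnn1b-Tg LPS, of which Chil3 and Cd68 made up most. Several markers were much lower with LPS in both genotypes, namely Siglecf (103 to 128 CPM in medium, 5.08 to 13.5 CPM with LPS), Fabp4 (191 to 387 and 18 to 36.6), Pparg (121 to 160 and 25.6 to 30.4), Ear2 (296 to 483 and 84.1 to 129), Mrc1 (209 to 378 and 65.5 to 124) and Atp6v0d2 (1974 to 2148 and 915 to 1151), while Marco and Car4 were higher. Markers of T or NK cells, B cells, eosinophils and erythroid cells each summed to under 3 CPM in every library. In bulk RNA, fewer cells of a type and less RNA per cell cannot be told apart.

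In the RefSeq table of promoters (build GRCm38.p6, windows from 250 bases before to 50 bases after the start), 9 of the 10 genes were found. Both strands were searched for 5 motifs chosen with the values known: the NF-kB consensus, the core of the cyclic AMP response element (TGACGT), an AP-1 site (TGACTCA), an interferon response motif (GAAA, any 2 bases, GAAA) and the serum-response CArG box. Of the 9 genes, 5 held at least 1 of them in any of their windows, against 26.4% of all 27025 genes of the table. The 3 promoters with the most matches are printed up to the start site, 5′ to 3′ on the gene's strand, with matches in capitals. All 3 genes rose with LPS in both genotypes.
Tnfaip3 (minus strand, chr10:19015411-19015660): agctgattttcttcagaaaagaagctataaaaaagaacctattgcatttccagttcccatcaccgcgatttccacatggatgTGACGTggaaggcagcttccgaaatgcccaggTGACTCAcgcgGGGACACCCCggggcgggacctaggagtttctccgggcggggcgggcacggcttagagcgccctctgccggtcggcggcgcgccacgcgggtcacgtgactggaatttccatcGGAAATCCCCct
Tnip1 (minus strand, chr11:54962941-54963190): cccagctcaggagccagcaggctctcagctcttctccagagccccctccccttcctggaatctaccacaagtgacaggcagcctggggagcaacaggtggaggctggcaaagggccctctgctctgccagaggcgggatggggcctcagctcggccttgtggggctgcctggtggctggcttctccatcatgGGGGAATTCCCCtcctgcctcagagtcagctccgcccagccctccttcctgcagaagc
Dusp1 (minus strand, chr17:26508473-26508722): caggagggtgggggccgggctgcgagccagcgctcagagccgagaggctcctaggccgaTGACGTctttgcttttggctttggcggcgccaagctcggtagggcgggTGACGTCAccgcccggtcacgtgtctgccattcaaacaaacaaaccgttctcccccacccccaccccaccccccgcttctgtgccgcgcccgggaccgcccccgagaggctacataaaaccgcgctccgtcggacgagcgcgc
The Tnfaip3 window held the NF-kB consensus at positions -125 and -12, as GGGACACCCC and GGAAATCCCC, an AP-1 site at -136 and the CRE core at -168. In Tnip1, 3 overlapping matches to the NF-kB consensus formed the capital run that starts at position -58. Dusp1 held the CRE core at -191 and, as a palindrome read on both strands, at -143, and Zfp36 held a CArG box at -58. Irak3 held the CRE core on the other strand at position 2 after the start. The windows of Traf1, Dusp2 and Dusp16, which also rose with LPS, and of Zfp36l1, which fell, held none of the motifs. Over all 32851 promoter windows of this table, 8.46% held the NF-kB consensus, 7.51% the CRE core, 5.2% the AP-1 site, 3.44% the interferon response motif and 1.63% the CArG box. A match is a run of letters and not a shown binding site.

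The tristetraprolin family binds UAUUUAU and longer forms of it in 3′ untranslated regions, and some of its members carry the element in their own transcripts. In 1 transcript per gene (GENCODE M21, mm10, the longest coding sequence), examined for 9 of the 10 genes, Zfp36, Zfp36l1, Zfp36l2 and Dusp1 held 3 such elements each, Dusp2 held 1, and Tnip1, Traf1, Irak3 and Dusp16 held 0. Of 11594 tested genes with a 3′ untranslated region, 26.9% held at least 1 element and 3.2% held 3 or more. The untranslated regions of Zfp36 and Dusp1, at 774 and 690 bases, were shorter than the median of 934 bases, and those of Zfp36l1 and Zfp36l2, at 1835 and 1822 bases, were longer. Windows of 30 bases around elements are printed with UAUUUAU in capitals, all 3 of Zfp36 and the first of each other gene shown, since the AU-rich members include genes that rose and genes that fell.
Zfp36 site 1 (chr7:28376965-28376994): agugggcccuuUAUUUAUgacgacuuuauu
Zfp36 site 2 (chr7:28376950-28376979): uaugacgacuuUAUUUAUuguauuaagauu
Zfp36 site 3 (chr7:28376925-28376954): agauuuuauagUAUUUAUauauauuggguc
Zfp36l1 (chr12:80108421-80108450): uuaucaaaacgUAUUUAUugccaaacuaug
Zfp36l2 (chr17:84184913-84184942): acuauuuaacuUAUUUAUuaucuugugaaa
Dusp1 (chr17:26506158-26506187): gagcugguccuUAUUUAUuuaacacccccc
Dusp2 (plus strand, chr2:127338304-127338333): acagcacuuuaUAUUUAUauagaacauuga
All of these but Dusp2 lie on the minus strand.

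The first question was how AMs of each genotype changed these regulators after 12 h of LPS. In WT AMs 7 of the 10 rose (Tnfaip3, Tnip1, Traf1, Irak3, Dusp1, Dusp2 and Dusp16), 2 fell (Zfp36l1 and Zfp36l2) and Zfp36 was not called. Among all genes tested in WT AMs, 15.5% were called higher and 16.2% lower. In Scnn1b-Tg AMs the same 7 rose and all 3 tristetraprolin family members fell, where 19.3% of all genes were called higher and 18.7% lower. The median log2 fold change of the 10 was 1.7 in WT and 1.51 in Scnn1b-Tg AMs, against 0 and -0.02 over all genes. Libraries of medium and LPS did not overlap for 9 of the 10 in WT and for 10 of 10 in Scnn1b-Tg AMs, which held for 38.7% and 43.8% of all genes. The 2 genotypes' comparisons used different libraries but 1 common fit.

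**Figure D1:**
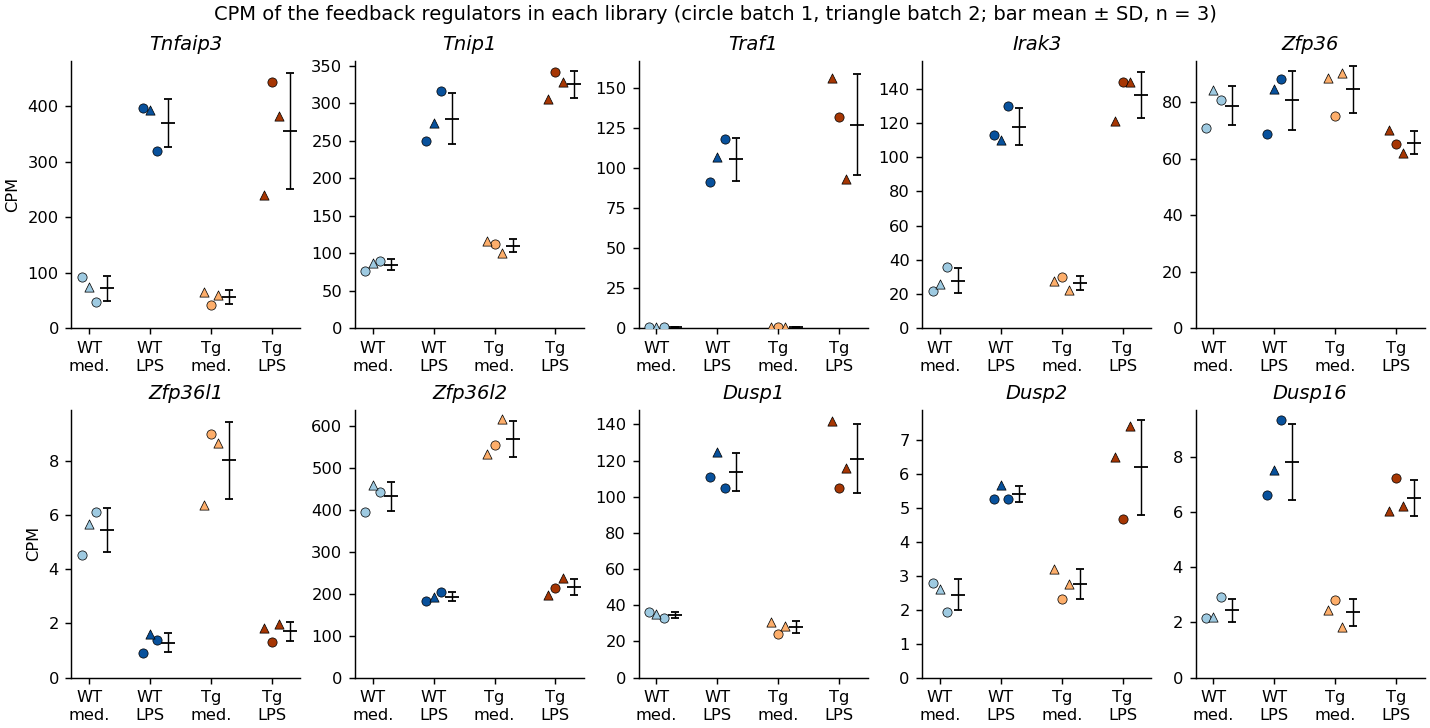
CPM of the 10 regulators in each of the 12 libraries (linear axes from 0, circles batch 1, triangles batch 2, bars mean ± SD of 3 libraries). Traf1 sits between 0.683 and 1.22 CPM in all medium libraries and between 91.0 and 156 CPM with LPS, while Zfp36 stays between 61.9 and 90.3 CPM throughout.

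A20, encoded by Tnfaip3 (ENSMUSG00000019850, chr10:19000910-19015657, minus strand), removes and adds ubiquitin chains on signalling proteins such as TRAF6 and RIPK1. In WT medium Tnfaip3 stood at 93.4, 48.4 and 73.9 CPM in pools 16, 17 and 18, and in WT LPS at 396, 319 and 393 CPM. In Scnn1b-Tg medium it stood at 42.8, 66.1 and 60.0 CPM in pools 17, 18 and 19, and with LPS at 444, 240 and 382 CPM. Every LPS library lay above every medium library, and the Scnn1b-Tg LPS libraries spread the most, with pool 18 the lowest. LPS raised it by 2.36 ± 0.28 (log2, SE; edgeR adjusted p = 7.34e-05) in WT and by 2.67 ± 0.29 (edgeR adjusted p = 2.47e-05) in Scnn1b-Tg AMs, which are 5.14-fold and 6.35-fold. By pool, the rise ran from 1.86 in Scnn1b-Tg 18 to 3.38 in Scnn1b-Tg 17.

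ABIN-1, encoded by Tnip1 (ENSMUSG00000020400, chr11:54910785-54962917, minus strand), binds ubiquitin chains and A20. Its level was 76.3, 90.3 and 87.7 CPM in WT medium and 249, 316 and 273 CPM in WT LPS. Scnn1b-Tg libraries stood at 113, 117 and 101 CPM in medium and 341, 306 and 328 CPM with LPS. The groups of each genotype lay well apart, and LPS raised Tnip1 by 1.72 ± 0.11 in WT (3.29-fold, edgeR adjusted p = 6.83e-07) and by 1.56 ± 0.11 in Scnn1b-Tg AMs (2.94-fold, edgeR adjusted p = 8.4e-07). Of 8 further A20 partners and ubiquitin editors, 3 rose in WT AMs, and in Scnn1b-Tg AMs 3 rose and 1 fell. Those that rose in both genotypes were Tnip3, which encodes ABIN-3 (log2 0.61 in WT and 1.14 in Scnn1b-Tg), Rnf11 (0.9 and 1.06), a subunit of the A20 complex, and the deubiquitinase Otud7b (0.86 and 0.96). The list's median log2 fold change was 0.08 and 0.1.

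IRAK-M, encoded by Irak3 (ENSMUSG00000020227, chr10:120141648-120202130, minus strand), lacks kinase activity and hinders the release of IRAK1 and IRAK4 from the receptor complex. Irak3 measured 21.9, 36.0 and 25.7 CPM in WT medium and 113, 130 and 110 CPM in WT LPS. The Scnn1b-Tg values were 30.1, 27.7 and 22.2 CPM in medium and 144, 121 and 144 CPM with LPS. No LPS library came near the medium range, and the rise was 2.08 ± 0.17 in WT (4.22-fold, edgeR adjusted p = 3.74e-06) and 2.35 ± 0.17 in Scnn1b-Tg AMs (5.11-fold, edgeR adjusted p = 1.08e-06). Exons of 2 genes on the opposite strand overlap 220 bases of its exons, and counting ignored strand. Among the active signalling partners, Myd88 rose by 0.34 in WT and 0.56 in Scnn1b-Tg AMs, and Irak1 fell by 0.32 and 0.25. Irak4 fell in Scnn1b-Tg AMs (-0.35) and was not called in WT (-0.19), and Irak2 was called in neither. Of the 3 calls among these genes in Scnn1b-Tg AMs, 1 was left without Scnn1b-Tg LPS 18, and of the 2 in WT AMs 1 was left with only the groups compared. The median of these 4 genes was -0.02 in WT and -0.3 in Scnn1b-Tg AMs.

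Traf1 (ENSMUSG00000026875, chr2:34941750-34961772, minus strand) encodes an adaptor without a RING domain that joins TRAF2 and cIAP proteins and is itself a known NF-kB target. In medium its level was low, at 0.734, 1.08 and 0.683 CPM in WT and 0.907, 1.22 and 0.803 CPM in Scnn1b-Tg AMs, from 34 to 64 counts per library. With LPS it reached 91.0, 118 and 107 CPM in WT and 132, 156 and 93.2 CPM in Scnn1b-Tg AMs, from 4555 to 8193 counts. The rise of 6.99 ± 0.27 in WT (127-fold, edgeR adjusted p = 2.03e-08) and 7.02 ± 0.26 in Scnn1b-Tg AMs (130-fold, edgeR adjusted p = 1.4e-08) was the largest among the 10 genes. By pool it lay between 6.72 and 7.22. Among 7 other TRAF and IAP genes, 5 rose in WT and 4 in Scnn1b-Tg AMs, with none lower, and the list's median was 0.63 and 1.0. The WT count was 3 without WT medium 16, without WT medium 18, without WT LPS 17 and without WT LPS 18, and also 3 without the batch term, with total counts or with only the groups compared. Traf5 (2.07 and 2.33) and Traf2 (1.3 and 1.62) rose most, followed by Birc3, which encodes cIAP2 (0.93 and 1.14), and Traf3 (0.63 and 1.0). Traf6, the ligase of the TLR pathway, rose in WT AMs by 0.37 and was not called in Scnn1b-Tg AMs at 0.32.

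**Figure D2:**
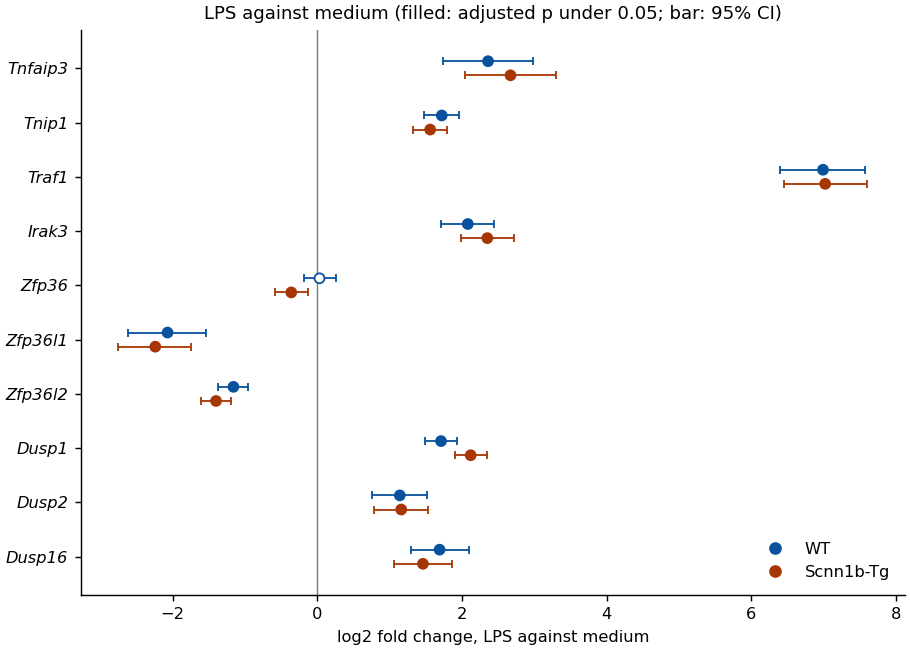
Log2 fold change of LPS against medium for each regulator in WT (blue) and Scnn1b-Tg AMs (brown), with 95% confidence intervals from the edgeR fit, filled where the adjusted p was under 0.05. Traf1 stands near 7 in both genotypes, 6 others lie between 1.14 and 2.67, and Zfp36l1 and Zfp36l2 lie below 0.

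The phosphatase transcripts all rose but stood at very different levels. DUSP1 dephosphorylates chiefly p38 and JNK in the nucleus, and Dusp1 (ENSMUSG00000024190, chr17:26505590-26562128, minus strand) is a classic early gene. It measured 36.1, 32.9 and 35.0 CPM in WT medium, 111, 105 and 125 CPM in WT LPS, 24.2, 30.8 and 28.4 CPM in Scnn1b-Tg medium and 105, 142 and 116 CPM in Scnn1b-Tg LPS. The rise was 1.71 ± 0.1 in WT (3.26-fold, edgeR adjusted p = 4.03e-07) and 2.12 ± 0.1 in Scnn1b-Tg AMs (4.34-fold, edgeR adjusted p = 6.32e-08). By pool, it ran from 1.62 to 1.84 in WT and from 2.02 to 2.2 in Scnn1b-Tg AMs. The difference between the genotypes in this rise was not called (edgeR adjusted p = 0.67). An overlap of 11 bases with an exon of Ergic1 on the opposite strand is part of its exons.

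Dusp2 (ENSMUSG00000027368, chr2:127336159-127338376, plus strand) encodes a nuclear phosphatase of immune cells. It measured 2.79, 1.94 and 2.61 CPM in WT medium and 5.27, 5.27 and 5.67 CPM in WT LPS. In Scnn1b-Tg AMs it measured 2.31, 3.21 and 2.76 CPM in medium and 4.67, 6.5 and 7.42 CPM with LPS. It rose the least of the 7, by 1.14 ± 0.17 in WT (edgeR adjusted p = 0.000429) and 1.16 ± 0.17 in Scnn1b-Tg AMs (edgeR adjusted p = 0.000239).

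Dusp16 (ENSMUSG00000030203, chr6:134715468-134792625, minus strand) encodes a phosphatase that prefers JNK and p38. It measured 2.17, 2.93 and 2.21 CPM in WT medium and 6.61, 9.33 and 7.52 CPM in WT LPS. The Scnn1b-Tg libraries measured 2.81, 2.45 and 1.85 CPM in medium and 7.25, 6.05 and 6.24 CPM with LPS. The rise was 1.69 ± 0.18 in WT (edgeR adjusted p = 3.33e-05) and 1.46 ± 0.18 in Scnn1b-Tg AMs (edgeR adjusted p = 7.32e-05), with no overlap between medium and LPS libraries in either genotype.

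Of 7 other MAP kinase phosphatases, 3 rose and 1 fell in WT AMs, and 2 rose and 2 fell in Scnn1b-Tg AMs, with medians of 0.73 and 0.23. Dusp4, for a nuclear phosphatase of ERK, JNK and p38, was at or under the floor of 8 counts in every medium library. Its mean was 9.13 CPM in WT LPS and 10.8 CPM in Scnn1b-Tg LPS. These group means, not each library, were at least 58.7-fold and 73.8-fold higher than the mean floor in medium. Dusp6, for a cytoplasmic ERK phosphatase, rose by 0.73 and 0.77, and Dusp7 fell by 0.77 and 0.94. Among the MAP kinases on which these enzymes act, 5 of the 8 listed were tested, with medians of 0.17 and 0.63. Mapk9 (JNK2) rose by 0.67 and 0.77 in WT and Scnn1b-Tg AMs, Mapk3 (ERK1) fell by 0.68 and 0.67, and the other 3 were called in neither genotype.

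In the tristetraprolin family no member rose. Zfp36 (ENSMUSG00000044786, chr7:28376784-28380253, minus strand) encodes tristetraprolin itself. It measured 71.0, 80.9 and 84.4 CPM in WT medium and 68.9, 88.2 and 84.7 CPM in WT LPS, with full overlap of the groups. In Scnn1b-Tg AMs it measured 75.0, 88.5 and 90.3 CPM in medium and 65.3, 70.0 and 61.9 CPM with LPS, all 3 LPS libraries below all 3 medium libraries. The log2 fold change was 0.03 ± 0.1 in WT (95% confidence interval -0.19 to 0.26, edgeR adjusted p = 0.836), and -0.05 when libraries were scaled by total counts. It fell by 0.36 ± 0.1 in Scnn1b-Tg AMs (1.28-fold lower, edgeR adjusted p = 0.0181). That call was lost when 1 library was left out, at -0.35 without Scnn1b-Tg medium pool 18, -0.33 without Scnn1b-Tg medium pool 19 and -0.29 without Scnn1b-Tg LPS pool 19, with an adjusted p of at most 0.0843 over 23 alternatives. Of the exon bases of Zfp36, 125 overlap the gene Gm44710 on the opposite strand.

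Zfp36l1 (ENSMUSG00000021127, chr12:80107754-80113013, minus strand) encodes a close relative that promotes decay of the same kind of mRNA. It measured 4.53, 6.11 and 5.65 CPM in WT medium and 0.899, 1.37 and 1.59 CPM in WT LPS. Its Scnn1b-Tg values were 9.0, 6.37 and 8.65 CPM in medium and 1.3, 1.84 and 1.97 CPM with LPS. All LPS libraries lay far below all medium libraries, with a fall of 2.07 ± 0.24 in WT (4.2-fold lower, edgeR adjusted p = 6.64e-05) and 2.24 ± 0.23 in Scnn1b-Tg AMs (4.73-fold lower, edgeR adjusted p = 1.75e-05). Of its 2990 exon bases, 1672 overlap the gene Gm26669 on the opposite strand, so that its value is uncertain under counting without strand.

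Zfp36l2 (ENSMUSG00000045817, chr17:84183931-84187947, minus strand) encodes the remaining member and was the most abundant of the family. It measured 395, 443 and 461 CPM in WT medium and 183, 204 and 192 CPM in WT LPS. In Scnn1b-Tg AMs it measured 556, 534 and 617 CPM in medium and 214, 198 and 237 CPM with LPS. It fell by 1.16 ± 0.09 in WT (2.24-fold lower, edgeR adjusted p = 4.05e-06) and by 1.4 ± 0.09 in Scnn1b-Tg AMs (2.63-fold lower, edgeR adjusted p = 7.21e-07). Pools within a genotype were close, from -1.26 to -1.11 in WT and from -1.43 to -1.38 in Scnn1b-Tg AMs. Of the exon bases of Zfp36l2, 105 overlap the gene AC132455.1 on the opposite strand.

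Per kb of exon, the summed level of the 3 family members went from 147 ± 12.0 CPM per kb in WT medium to 78.4 ± 5.91 in WT LPS and from 188 ± 13.5 to 80.7 ± 4.42 in Scnn1b-Tg AMs (mean ± SD, n = 3). Zfp36l2 made up 83.4% ± 0.198 of that sum in WT medium and 69.9% ± 1.86 in WT LPS, and 85.6% ± 0.981 and 75.7% ± 2.73 in Scnn1b-Tg AMs. The share of Zfp36 went from 15.4% ± 0.108 to 29.6% ± 1.74 in WT and from 13% ± 1.21 to 23.6% ± 2.71 in Scnn1b-Tg AMs, with no overlap in either genotype. Zfp36l1 stayed under 2% of the sum. These shares are descriptions and were not tested. They depend on the annotated exon length, which for Zfp36 (3470 bases) covers the whole span of the gene, and the SDs do not include that uncertainty.

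Of 10 other factors of mRNA decay, 4 rose in each genotype and none fell, with medians of 0.23 and 0.21. Zc3h12a, which encodes the endonuclease Regnase-1, rose by 3.27 and 3.13, with WT means of 19.5 CPM in medium and 188 CPM with LPS and Scnn1b-Tg means of 21.9 and 190 CPM. Its relative Zc3h12c rose by 3.81 and 4.19, Mapkapk2, for the p38-activated kinase that phosphorylates tristetraprolin, by 0.82 and 1.13, and N4bp1 by 0.48 and 0.61. Of 10 transcripts known as tristetraprolin targets, 7 were tested, 6 rose in each genotype and Ccl2 was called in neither. Their medians were 4.8 and 5.82 with Il6 at its bound (5.44 and 7.62 as fitted). Tnf measured 37.6 ± 8.3 CPM in WT medium and 1044 ± 150 CPM in WT LPS (mean ± SD, n = 3), against 28.3 ± 9.85 and 1208 ± 336 CPM in Scnn1b-Tg AMs. Cxcl1 measured 2.52 ± 0.359 and 686 ± 188 CPM in WT AMs, against 2.35 ± 1.18 and 899 ± 355 CPM in Scnn1b-Tg AMs. Il6 was at or under the floor of 8 counts in every medium library. Its LPS group means, not each library, were at least 18.7-fold higher than the mean floor in WT and at least 56.5-fold higher in Scnn1b-Tg AMs. Cxcl2 (log2 7.48 and 8.32) and Ptgs2 (6.44 and 7.62), for a neutrophil chemokine and for cyclooxygenase 2, rose as well.

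Other brakes on TLR signalling moved in both directions. Of 11 such genes, 3 rose and 7 fell in WT AMs, and 3 rose and 5 fell in Scnn1b-Tg AMs, with medians of -0.49 and -0.21. Socs1, for a suppressor of cytokine signalling (2.64 and 3.07), and Nfkbia, for the NF-kB inhibitor IkB-alpha (1.81 and 2.33), rose. Nlrc3 fell by 1.46 and 1.88, and Sigirr, an inhibitory receptor of the family, was at or under the floor with LPS in each genotype. That mean floor was at least 2.43-fold and 2.97-fold lower than the medium group means of Sigirr, not than each library. Among 10 tested genes of the immediate-early and handling response, 2 rose and 2 fell in WT AMs, and 2 rose and 3 fell in Scnn1b-Tg AMs, with medians of 0.04 and -0.1. With the pool as a block, 7 of these 10 were called in WT AMs. Fos fell by 1.25 and 1.48 and Egr1 by 0.73 and 0.61, while Junb rose by 0.75 and 0.93 and Hspa1a by 1.04 and 1.06. Medium and LPS libraries overlapped for Hspa1a, at 3.94 to 16.4 and 8.07 to 37.0 CPM in WT AMs. In Scnn1b-Tg AMs they measured 3.32 to 25.3 and 16.0 to 34.1 CPM.

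**Figure D3:**
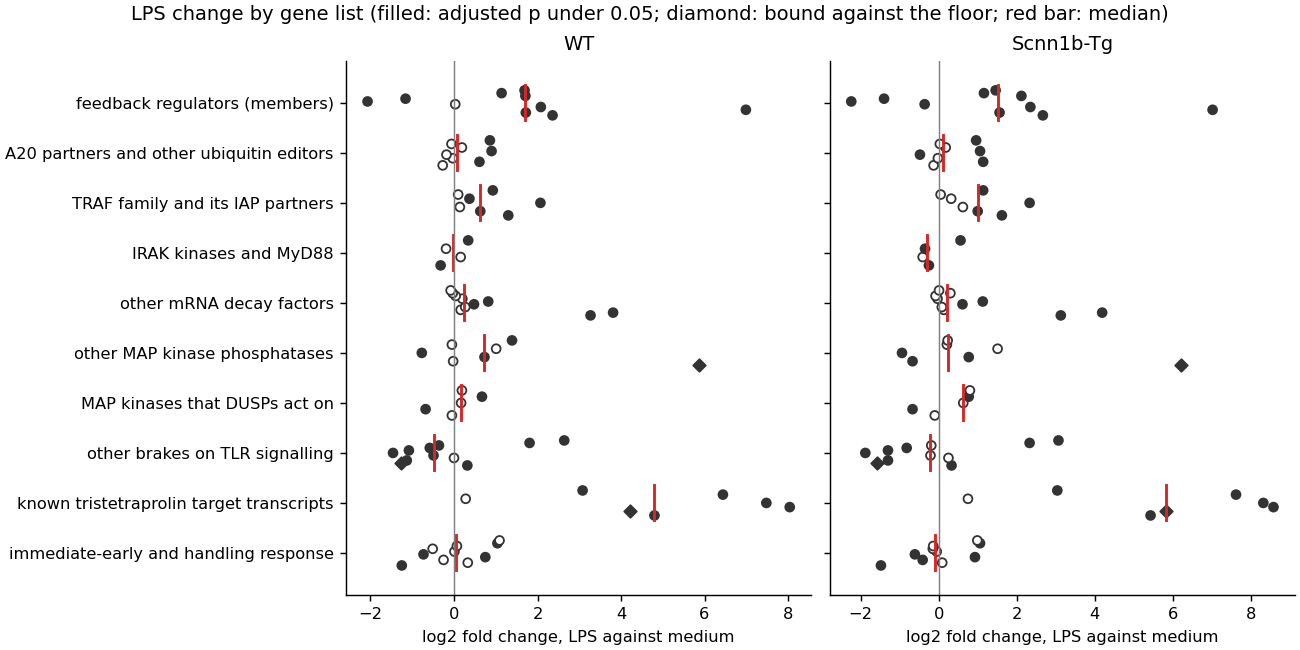
Log2 fold change of LPS against medium for every tested gene of each list in WT (left) and Scnn1b-Tg AMs (right), filled where the adjusted p was under 0.05, with the list's median as a red bar and bounds against the floor as diamonds (Dusp4, Sigirr and Il6). The feedback regulators have a median of 1.7 and 1.51, while the other brakes on TLR signalling have medians of -0.49 and -0.21.

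Levels of different genes were compared per kb of annotated exon, so that the order depends on the annotated lengths. For Zfp36 that length (3470 bases) covers the whole span of the gene. In WT medium the order of mean CPM per kb was Zfp36l2 (123), Tnip1 (24.0), Zfp36 (22.7), Dusp1 (10.5), Tnfaip3 (9.95), Irak3 (7.59), Zfp36l1 (1.82), Dusp2 (1.22), Dusp16 (0.312) and Traf1 (0.0944). Libraries overlapped between Tnip1 and Zfp36, between Dusp1 and Tnfaip3 and between Tnfaip3 and Irak3. In WT LPS, Tnip1 came first at 78.9, before Zfp36l2 (54.7) and Tnfaip3 (51.1), which overlapped, then Dusp1 (34.3) and Irak3 (32.0), which overlapped, Zfp36 (23.2), Traf1 (11.9), Dusp2 (2.7), Dusp16 (1.0) and Zfp36l1 (0.43). Traf1 thus moved from the last to the seventh place and Zfp36l1 from the seventh to the last. Scnn1b-Tg AMs had the same order in medium, from 161 for Zfp36l2 to 0.111 for Traf1, with overlap of Tnfaip3 with its 2 neighbours only. With LPS their order, from 91.8 for Tnip1 to 0.571 for Zfp36l1, differed from WT in the places of Irak3 (37.0) and Dusp1 (36.5), which overlapped, as did Tnfaip3 with Zfp36l2 and with Irak3.

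**Figure D4:**
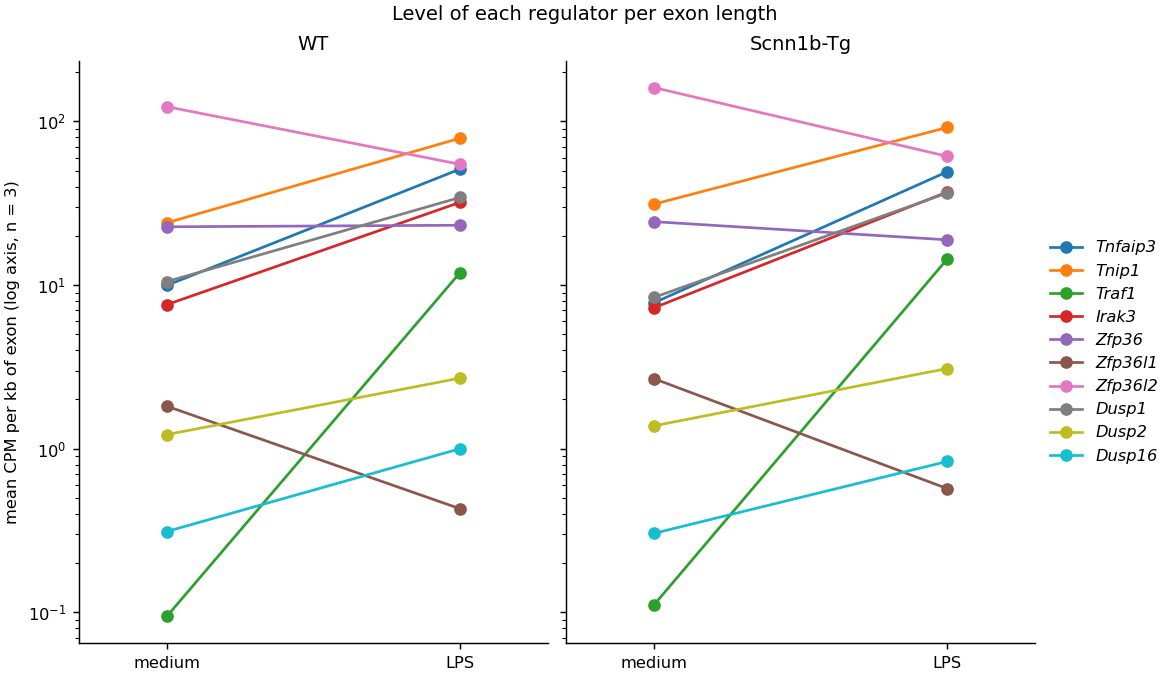
Mean CPM per kb of exon of each regulator in medium and with LPS (log axis, 3 libraries per group, WT left, Scnn1b-Tg right). Lines cross where the order changes: Tnip1 passes Zfp36l2, and Traf1, from about 0.1 CPM per kb in medium, ends above Dusp2, Dusp16 and Zfp36l1.

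The second question was whether Scnn1b-Tg AMs differed from WT AMs. In medium none of the 10 genes was called by edgeR, where 0.335% of all genes were called. An unadjusted p under 0.05 was found for 1839 of the 13729 genes tested and for 4 of the 10. Zfp36l1 was higher by 0.53 ± 0.21 (edgeR adjusted p = 0.304), Tnip1 by 0.39 ± 0.11 (edgeR adjusted p = 0.156) and Zfp36l2 by 0.38 ± 0.1 (edgeR adjusted p = 0.126), and Dusp1 was lower by 0.39 on the log2 scale, at -0.39 ± 0.1 (edgeR adjusted p = 0.136). The libraries of the genotypes did not overlap for these 4, which was so for 18.4% of all genes. DESeq2 called 3 of the 10 in medium, Tnip1, Zfp36l2 and Dusp1, with DESeq2 adjusted p-values of 0.0283, 0.0145 and 0.0204. Of all 13729 genes it called 501, against 46 by edgeR. Within batch 1 and batch 2, the difference was -0.51 and -0.24 for Dusp1, 0.44 and 0.31 for Tnip1, 0.41 and 0.32 for Zfp36l2 and 0.77 and 0.39 for Zfp36l1, with 1 or 2 libraries per genotype and batch. The other 6 genes lay between -0.37 (Tnfaip3) and 0.25 (Traf1). The widest intervals ran from -0.99 to 0.25 for Tnfaip3 and from -0.47 to 0.96 for Traf1.

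With LPS none of the 10 was called by edgeR, where 0.051% of all genes were called. An unadjusted p under 0.05 was found for 978 of the 13729 genes tested and for 1 of the 10, Zfp36. Zfp36 stood at -0.34 ± 0.11 (95% confidence interval -0.57 to -0.1, edgeR adjusted p = 0.417), -0.26 in batch 1 and -0.36 in batch 2, and its libraries overlapped between the genotypes. DESeq2 also called none of the 10. No regulator was without overlap between genotypes in LPS, against 9.11% of all genes. Tnfaip3 with LPS was at -0.07 ± 0.27 (95% confidence interval -0.66 to 0.53), and its batches differed in sign, at 0.32 and -0.38. For Dusp1 the difference with LPS was 0.02 ± 0.1 (95% confidence interval -0.2 to 0.24).

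The third question was whether LPS changed the regulators by a different amount in the 2 genotypes, tested as an interaction. None of the 10 was called, nor was any of the 13729 genes (0%), of which 817 had an unadjusted p under 0.05 and 77 were called by DESeq2, none of them a regulator. Of the 10 regulators, 2 had an unadjusted p under 0.05. The rise of Dusp1 was larger in Scnn1b-Tg AMs by 0.41 ± 0.14 (95% confidence interval 0.11 to 0.71, edgeR adjusted p = 0.67), at 0.47 in batch 1 and 0.27 in batch 2. The change of Zfp36 was lower in Scnn1b-Tg AMs, at -0.39 ± 0.15 (95% confidence interval -0.72 to -0.07, edgeR adjusted p = 0.732), at -0.24 and -0.45 by batch. For the other 8 the difference lay between -0.23 and 0.31 with intervals that all held 0, so that differences of up to 1.14 on the log2 scale for Tnfaip3 were within its interval. These are the same libraries as in the comparisons above, and the 3 genotype comparisons are not independent of each other.

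**Figure D5:**
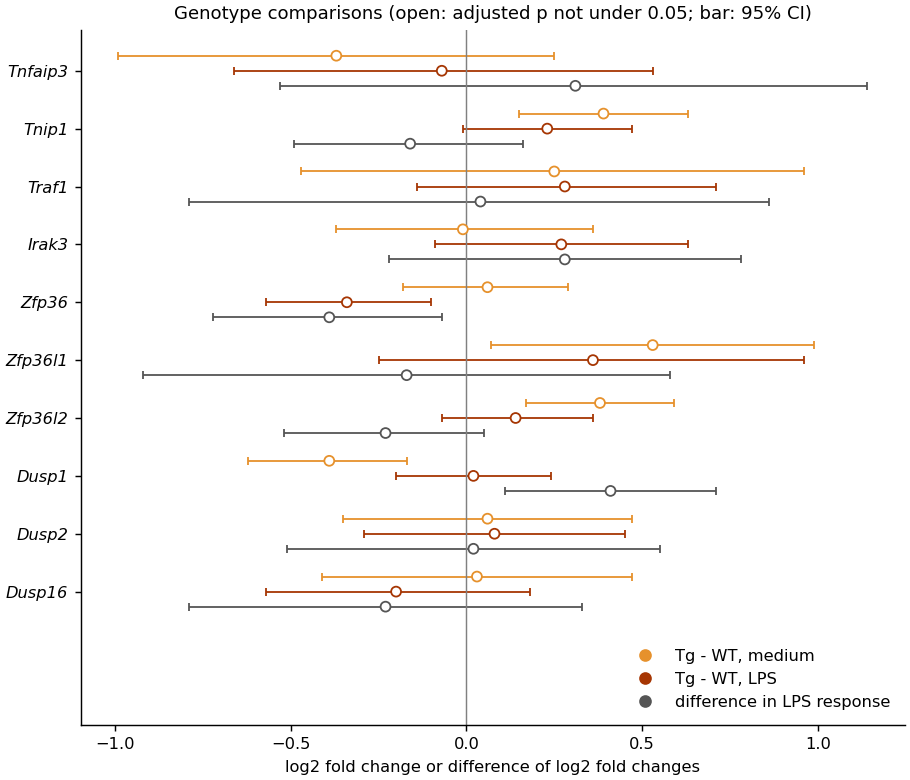
Genotype differences of each regulator in medium (orange) and in LPS (brown), and the difference between the genotypes' LPS responses (grey), as log2 values with 95% confidence intervals from the edgeR fit. All points are open, since no adjusted p was under 0.05, and Tnfaip3 and Traf1 have the widest intervals.

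Summed levels of several other marker lists differed between groups, but markers of 1 list could move in opposite directions with LPS. Among the neutrophil markers in WT AMs, mean Cxcr2 (4.01 and 0.186 CPM) and Csf3r (6.53 and 2.86) were lower with LPS. S100a8 (2.86 and 7.32) was higher. The summed level of the 6 epithelial markers was 80.4 to 118 CPM in WT libraries and 35.9 to 73.3 CPM in Scnn1b-Tg libraries, led by Scgb1a1 and Sftpc. The neutrophil markers in the table (4 of 7) summed to 12.4 to 14.6 CPM in WT medium and 18.1 to 22.1 CPM in Scnn1b-Tg medium, and to 9.18 to 12.1 CPM in WT LPS and 12.4 to 16.2 CPM in Scnn1b-Tg LPS, without overlap between genotypes, with S100a9 at most at 0.0951 CPM in any library. The 6 monocyte markers summed to 13.3 to 18.7 CPM in WT medium and 18.7 to 23.9 CPM in Scnn1b-Tg medium, and to 1.94 to 2.76 and 2.85 to 4.31 CPM with LPS, in medium nearly all of it from Ace, with Ccr2 at most 0.635 CPM. The dendritic cell markers in the table (5 of 6) summed to 2.61 to 3.54 CPM in WT medium and 5.01 to 7.09 CPM in Scnn1b-Tg medium, and to 9.27 to 9.97 and 13.4 to 20.2 CPM with LPS, again without overlap between genotypes and mostly Ccr7, with Flt3 at most 0.285 CPM. Ccr7 itself was higher in Scnn1b-Tg AMs in medium by 1.33 ± 0.22 (log2, SE; edgeR adjusted p = 0.042), and in LPS by 1.09 ± 0.19 without passing the threshold (edgeR adjusted p = 0.0798). The part of these cells in the genotype comparisons and in the LPS changes of the regulators was not tested.

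For each regulator, the genes with the most similar pattern were taken as those with the smallest root mean square difference of centred log2 CPM over the 12 libraries, as a description. For Dusp1 they were Pilra, Nfkbia and Gch1 (0.12, 0.13 and 0.14), and for Irak3 they were Nod2, Frk and Car13 (0.18, 0.18 and 0.19). Tnip1 was most like Cybb (0.14), Trpm4 and Arhgap10, and Tnfaip3 was most like Il20rb (0.27), Ampd3 and Pcx. For Traf1, Orm1 came nearest at 0.38, before Col5a3 and Acod1. Dusp2 had Gm13571 (0.14), Fcrlb and Acvr1b, and Dusp16 had Limd1 (0.15), Itga5 and Slc7a8. In the tristetraprolin family, Zfp36l2 was most like Hdac5 (0.08), Arhgap9 and Abhd15, Zfp36l1 like Kcnn3 (0.22), Sirpb1a and Gpx3, and Zfp36 like 1700030K09Rik (0.06), Mycbp2 and Fbxo21. The LPS change weighs in this measure, since 6 of the 12 libraries had LPS.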

How the data were processed

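RNA-seq of 12 libraries (4 groups of 3) was analysed from the gene counts that the authors deposited; per the labels and the study's methods, reads were aligned to mm10 with HISAT2 in unstranded mode inside the nf-core RNAseq pipeline (1.2) and quantified with StringTie against GENCODE M20. These counts are estimated from coverage: 55.3% of the values from 1 to 30 left a remainder of 0 or 3 on division by 5 (40% if evenly spread), which matches 2.5 counts per read, so that 8 counts per library (3 reads, 0.131 to 0.166 CPM) were taken as the floor. Such bounds cover counting error only. Symbols and positions came from GENCODE M21 on mm10 (20158 of 20551 IDs matched).

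Genes were filtered with filterByExpr (minimum count 10, minimum total 15), and edgeR 4.0.16 in R 4.3.3 fitted all libraries together by quasi-likelihood, with group and batch as terms, TMM factors, two-sided tests and a threshold of 0.05 over all genes. CPM per kb used the union of annotated exons. Samples were grouped by their labels. P-values measure the spread between libraries within groups and batches, with 3 libraries per group. The main fit had no pool term and took the medium and LPS libraries of 1 pool as separate. The number in the titles was taken as the lavage pool. Deviations from the group means correlated at 0.137 to 0.335 between medium and LPS libraries with the same number, and at -0.3 to 0.083 between other pairs. After removal of the batch means, the same-number correlations ran from -0.242 to 0.151 and those of the other pairs from -0.262 to 0.174. The correlations therefore cannot decide the pairing, since the first values share the batch. The members and lists were chosen with earlier results of these data known. All 10 members were named with values in every library, and from each list at most 4 genes called in both genotypes with the largest changes, plus genes named to state a count. Alternatives were DESeq2 1.42.0, RLE factors, other filters, no batch term, counts divided by 5, only the groups compared, a pool or number block, each library left out and, chosen after seeing the data, scaling by total counts. The scripts were tested on simulated data. One result on 3′ untranslated regions is not reported here.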

Additional observations from a re-analysis of the deposited data

How the results depend on the processing

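The 7 rises and the falls of Zfp36l1 and Zfp36l2 with LPS kept their direction and their call in both genotypes under all 23 alternatives. Over the 10 regulators and 23 alternatives (22 for the genotype comparisons, where a fixed pool term or a fit of only the groups compared gives no value), 227 of 230 values in WT and 227 of 230 in Scnn1b-Tg AMs kept direction and call, the exceptions being Zfp36 in each genotype, and 205 of 220 did so for the genotypes in medium, 213 of 220 in LPS and 208 of 220 for the interaction. Scaling by total counts moved the median of all genes to -0.08 in WT and -0.12 in Scnn1b-Tg AMs and the genes called higher and lower with LPS from 2131 and 2228 to 1751 and 2768 in WT, and from 2652 and 2573 to 2119 and 3326 in Scnn1b-Tg AMs. Values near 0 changed sign: Zfp36 with LPS in WT (-0.05 with total counts), Dusp16 between genotypes in medium (-0.03 without batch), Irak3 in medium (0.01 with only the groups compared), Dusp1 in LPS (-0.02 with only the groups compared) and the interaction of Dusp2 (-0.01 with counts divided by 5). The replicate block changed no call of a regulator; with the replicate number as the block, Dusp16 in medium was -0.06, Tnfaip3 in LPS was 0.04, and 77 genes were called in medium and 12 in LPS, and with the pool as a random effect, Irak3 in medium was 0.02 and 11 genes were called in LPS. Of all genes, 46 were called between genotypes in medium, against 501 by DESeq2 (3 of them regulators), 18 without the filter, 28 without batch and 20 with only the groups compared; in LPS 7 were called, against 146 by DESeq2, 4 without batch and 2 with only the groups compared; and the interaction called 0, against 77 by DESeq2. Leaving out 1 library at a time gave 3 to 49 genes called in medium, 2 to 10 in LPS and 0 to 1 for the interaction. Over those fits, Zfp36 with LPS ran from -0.07 to 0.13 in WT and from -0.41 to -0.29 in Scnn1b-Tg AMs; in medium Irak3 ran from -0.16 to 0.17, Dusp2 from -0.05 to 0.22 and Dusp16 from -0.07 to 0.14; in LPS Tnfaip3 ran from -0.41 to 0.15, Dusp1 from -0.07 to 0.07 and Dusp2 from -0.04 to 0.24; and for the interaction Traf1 ran from -0.18 to 0.23, Zfp36l1 from -0.35 to 0.03 and Dusp2 from -0.17 to 0.14. The cause of these changes was not tested. Leaving out Scnn1b-Tg medium pool 17 gave the 3 genes in medium. With 3 pools per group, the intervals of the genotype difference in medium span more than 1 log2 unit for Tnfaip3 and Traf1.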
